A study of Rattus norvegicus with 12 samples.

Results

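The miR-106a-363 and miR-106b-93 clusters are the paralogues of the miR-17 cluster (miR-17 to miR-92a), and 5 of their miRNAs (miR-106a, miR-20b, miR-363, miR-106b and miR-93) are described here out of 375 miRNA assays on the PCR card that was used. They were chosen by name: an assay counted when its listed name, without the species prefix and the numeric suffix, was that of a cluster member. All 5 were found, each in 1 well per sample. The study measured miRNAs in cells of the medial entorhinal cortex of Long Evans rats, and asked which of them distinguish stellate cells, neurons of layer II whose axons reach the dentate gyrus. The card was read in 5 stellate samples, 5 non-stellate samples and 2 tissue samples. Pups were injected with the dye DiO in the dentate gyrus on postnatal day 2, and their medial entorhinal cortex was dissociated and sorted on day 4 or 5 into DiO-positive cells, called stellate, and DiO-negative cells, called non-stellate. The tissue was dissected medial entorhinal cortex from day 23 that was not sorted. The labels name no transgene and no treatment other than the dye. The stellate group rests on dye uptake from the injected site, and the non-stellate group holds every unlabelled viable cell of the dissection.

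MiRNAs are short RNAs that guide a repressor complex to mRNAs through pairing of their seed, the bases 2 to 8 counted from the 5′ end. The miR-17 cluster and its paralogues arose by duplication, and their miRNAs with the seed of miR-17 are known for promoting cell cycle progression and for being abundant in dividing neural progenitors. Their known targets include brakes on the cell cycle such as the inhibitor p21.

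The mature rat sequences show which members share a seed and how few bases separate those with the miR-17 seed. They were taken from RefSeq (build GRCr8), and a gene was found there for all 5 members. They are printed 5′ to 3′ with the seed in capitals. The first set holds the miR-17 seed AAAGUGC, with miR-17 and miR-20a of the miR-17 cluster for comparison, and the second set holds the miR-92a seed AUUGCAC.

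miR-106a (gene Mir106a): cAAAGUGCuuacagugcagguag
miR-17 (gene Mir17): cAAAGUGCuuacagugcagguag
miR-20b: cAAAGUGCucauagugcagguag
miR-20a: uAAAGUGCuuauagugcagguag
miR-106b: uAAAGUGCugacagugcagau
miR-93: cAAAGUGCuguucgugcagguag

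miR-363: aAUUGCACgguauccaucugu
miR-92a: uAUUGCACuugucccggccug
miR-25: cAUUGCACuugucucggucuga

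In the rat the 5′ product of the gene Mir106a is letter for letter the 5′ product of Mir17, and RefSeq gives both the name miR-17-5p. The 2 copies lie on different chromosomes, at chrX:137343615-137343637 on the minus strand for Mir106a and at chr15:98587861-98587883 on the plus strand for Mir17. A product named miR-106a was found for none of the 693 mature products of the table, so 4 of the 5 members had a product of their own name. Counted from the 5′ end against miR-17-5p, miR-20b differs by U10C and C12U, miR-20a by C1U and C12U, and miR-106b by C1U, U10G and G20A over 21 bases. MiR-93 differs by U10G, A11U, C12U and A13C. The seed AAAGUGC occurs in 5 of the 693 rat products (0.722%), and the seed AUUGCAC in 5 as well (0.722%). MiR-92a also has identical copies, at chr15:98588602-98588622 in the miR-17 cluster and at chrX:137342945-137342965 between miR-20b and miR-363.

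The members come from a pair of loci. MiR-20b lies at chrX:137343239-137343261 and miR-363 at chrX:137342788-137342808, both on the minus strand behind Mir106a and in the same cluster. MiR-106b lies at chr12:22157103-22157123 and miR-93 at chr12:22156894-22156916, on the minus strand. Mir25 follows them, and the trio lies inside the gene Mcm7, which encodes a subunit of the replicative helicase. The card names its assays after mouse miRNAs and no assay sequence was used here. The arm was taken to be the one named without a star, which is the 5′ arm for miR-20b, because the card has a separate assay for miR-20b-3p.

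The card gives a threshold cycle (Ct), which falls by 1 for each doubling of template at full PCR efficiency, and lists 40 for a well with no detected product. Determined miRNA assays numbered 234 to 260 in stellate, 203 to 241 in non-stellate and 292 to 302 in tissue samples. The median Ct over the 176 assays determined in all 12 samples was 28.0 to 29.5, 28.9 to 30.9 and 23.7 in these groups, and the Ct of U6, a small nuclear RNA, was 16.5 to 19.0, 17.7 to 20.2 and 15.6 to 16.0. Levels were therefore read on 2 scales: U6-scaled Ct, as deposited, and Ct minus the sample's median over those 176 assays (median-centred). The 5 markers of neurons were determined in every sample. Of the red blood cell markers, miR-451 was undetermined in all 10 sorted samples. The other on the card, miR-486, was determined in all 10, at a Ct of 25.53 to 27.87. Of the oligodendrocyte markers, miR-219 was undetermined in all stellate samples and in some non-stellate samples. MiR-338-3p was determined in some stellate samples and undetermined in all non-stellate samples. Because these are bulk samples, fewer cells that express a miRNA and less of it per cell cannot be told apart.

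MiR-106a gave the lowest Ct of the 5 assays in every sample. Its Ct was 23.39, 22.69, 23.43, 22.81 and 21.97 in stellate samples 1 to 5. It was 23.32, 22.77, 23.31, 22.93 and 23.73 in non-stellate samples 1 to 5, and 21.64 and 21.37 in tissue. The sorted groups overlapped, and both tissue values were below all 10 sorted values, as they were for 88.7% of the 222 assays that were tested (197 assays). MiR-20b, the next miRNA of the X-linked cluster, gave 28.14, 26.13, 26.90, 26.27 and 25.35 in stellate samples and 27.79, 26.47, 27.08, 26.39 and 27.03 in non-stellate samples. The tissue read 24.87 and 24.82, again below every sorted sample. Sample 1 of each sorted group was the highest of its group.

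MiR-363, the last miRNA of that cluster and the member with the miR-92a seed, had the highest Ct of the 5 and was undetermined in 2 of 12 samples. It was undetermined in stellate sample 1 and gave 32.35, 34.03, 32.41 and 31.68 in stellate samples 2 to 5. It was undetermined in non-stellate sample 2 and gave 34.07, 33.44, 34.64 and 34.91 in the other non-stellate samples. The tissue gave 31.45 and 32.27. The determined values of the sorted groups overlapped, and so did those of stellate cells and tissue.

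The members from the Mcm7 locus gave similar Ct to each other. MiR-106b read 28.04, 26.69, 28.61, 27.23 and 25.73 in stellate samples 1 to 5 and 27.32, 26.94, 27.98, 26.86 and 28.24 in non-stellate samples 1 to 5. The tissue read 23.57 and 23.72. MiR-93 read 27.24, 26.77, 28.47, 27.37 and 26.40 in stellate samples, 26.68, 27.08, 28.16, 27.05 and 28.49 in non-stellate samples, and 24.80 and 24.52 in tissue. For both, the sorted groups overlapped and the tissue lay below every sorted sample, so that 4 of 5 members did so, beside 88.7% of all tested assays. Ct of different assays does not rank the miRNAs by abundance, since each assay has its own efficiency.

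**Figure D1:**
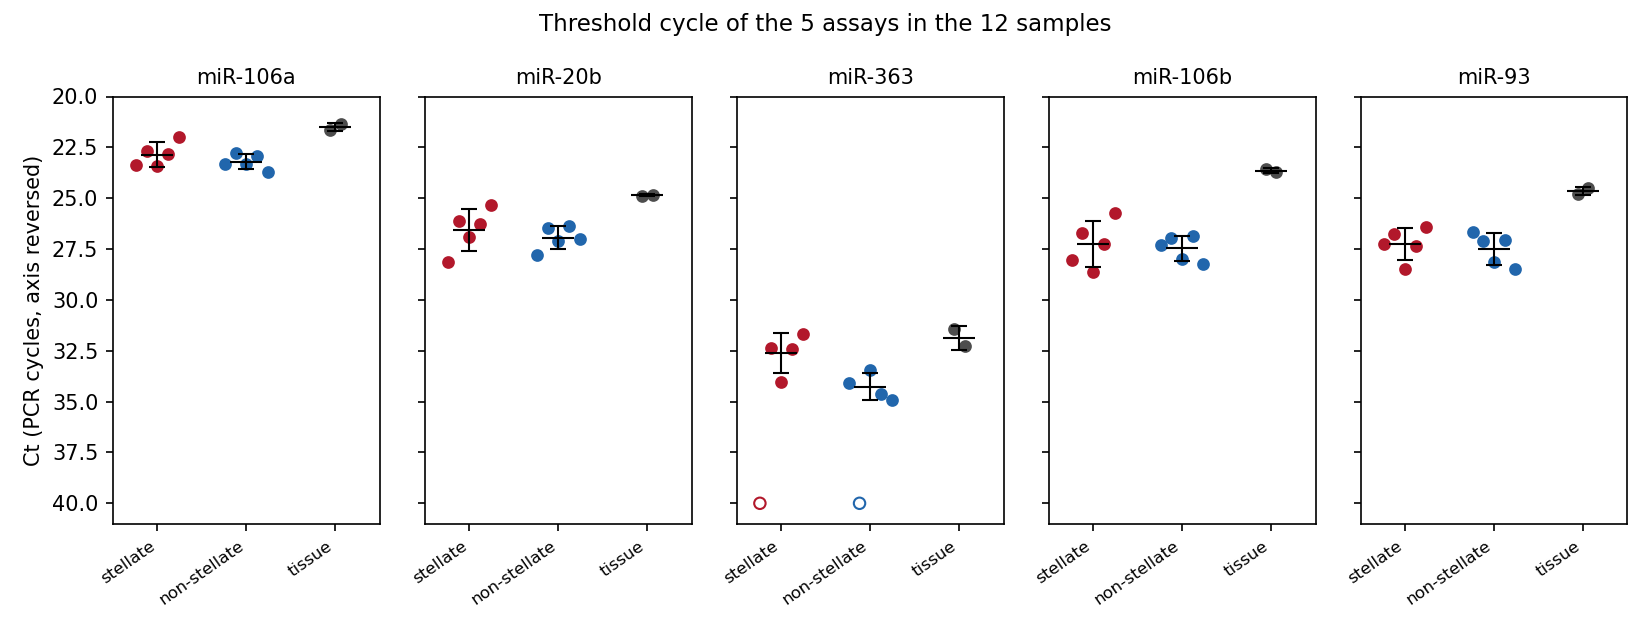
Ct of the 5 assays (vertical axis in PCR cycles, reversed so that more template is higher) in stellate, non-stellate and tissue samples. Points are samples, open points at 40 are undetermined wells, and bars are the mean ± SD of determined wells. Tissue lies above all sorted samples for miR-106a, miR-20b, miR-106b and miR-93, as for 88.7% of the 222 tested assays, while stellate and non-stellate samples overlap for all 5.

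The miR-106a and miR-17 assays gave nearly the same reading in every sample. The miR-106a assay differed from the miR-17 assay by 0.00, 0.08, 0.07, 0.12 and 0.07 cycles in stellate samples 1 to 5. In non-stellate samples 1 to 5 the difference was 0.07, 0.00, -0.15, 0.09 and 0.30 cycles, and in tissue it was 0.02 and 0.05 cycles. These 12 differences ranged from -0.15 to 0.30 with an SD of 0.102 cycles. For comparison, a difference between 2 U6 wells of the same card had an SD of 0.518 cycles. The assays thus differed by less than that SD in all 12 samples. Both rat genes give the same 5′ product, and which rat RNA the mouse-named miR-106a assay reads is not known here, so its readings do not divide the miRNA between Mir106a and Mir17.

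Assays that moved most like each member across the 10 sorted samples were ranked by the SD of the Ct difference between both assays, which needs no reference RNA. For miR-106a, the 3 most alike of 175 assays were miR-17 (SD 0.112 cycles), miR-92a (0.363) and miR-30e (0.409), against a median of 0.953 over all 175. For miR-20b they were miR-92a (0.445), miR-17 (0.461) and miR-197 (0.473), with a median of 1.18. The assays most like miR-106b were miR-20a (0.189), miR-100 (0.249) and miR-99a (0.266), with a median of 0.965. Those most like miR-93 were miR-20a (0.319), miR-9 (0.334) and miR-19b (0.336), with a median of 0.863. The closest assay of miR-106b and of miR-93, miR-20a, is encoded on another chromosome, whereas miR-17 and miR-92a have a copy on both chromosome 15 and X. For miR-363, over the 8 sorted samples that determined it, they were miR-325 (0.625), miR-361 (0.651) and miR-186 (0.667), with a median of 0.978. All assays of a sample share its card, RNA input and pre-amplification, and the SD is a description without a test.

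**Figure D2:**
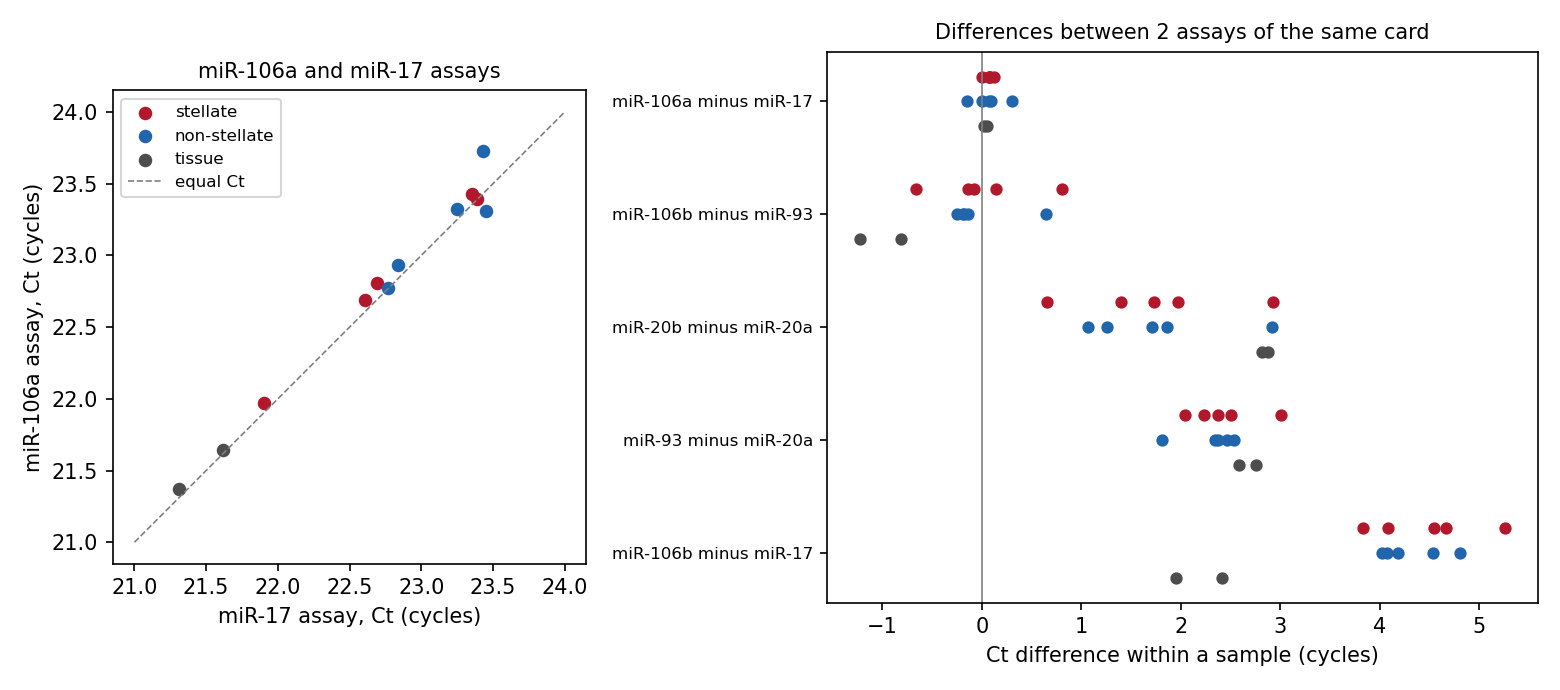
Left, Ct of the miR-106a assay against Ct of the miR-17 assay in the 12 samples with the line of equal Ct. Right, the Ct difference within each sample for 5 of the assay pairs, coloured by group as on the left. The 12 points on the left lie on the line within 0.30 cycles. On the right the tissue does not overlap the sorted samples for miR-106b minus miR-93 and for miR-106b minus miR-17. Neither difference passed after adjustment (exact permutation, adjusted p = 0.136 for both).

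Stellate cells were compared with non-stellate cells, the study's own question, first on the U6 scale. MiR-106a had a U6-scaled Ct of 6.57, 4.54, 4.40, 4.93 and 5.46 in stellate samples 1 to 5 and of 5.24, 5.03, 5.38, 4.43 and 3.50 in non-stellate samples 1 to 5. MiR-93 had 10.42, 8.61, 9.45, 9.50 and 9.89 in stellate samples and 8.59, 9.34, 10.23, 8.56 and 8.26 in non-stellate samples. The groups overlapped for both, and in both the stellate value was the higher of the pair with the same number in pairs 1, 4 and 5 and the lower in pairs 2 and 3. The log2 fold change of stellate over non-stellate cells was -0.46 ± 0.58 (SE) for miR-106a and -0.42 ± 0.78 for miR-20b. It was -0.61 ± 0.61 for miR-106b and -0.58 ± 0.55 for miR-93.

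None of the 5 members passed the test on the U6 scale (0 of 5, adjusted p from 0.776 to 0.965, limma with Benjamini-Hochberg adjustment), where 0% of the 222 tested assays were called. At an unadjusted p under 0.05 there were 16 assays and no member, and the exact permutation test called 0 of 222 after adjustment and 12 before it. MiR-363 passed the filter on undetermined wells, which allowed 3 of 10. Its fold change of 0.50 ± 1.84 includes the 2 wells listed at 40, and with those wells missing it was 0.85 ± 0.64. Over all tested assays the median log2 fold change was 0.46, and over the 5 members -0.46, and 4 of the 5 lay below the median of all. In order from the lowest fold change among the 222 assays, miR-106b was number 18, miR-93 number 19, miR-106a number 27, miR-20b number 31 and miR-363 number 120. No member was lower in stellate cells in all 5 numbered pairs (0.901% of the 222 assays were).

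**Figure D3:**
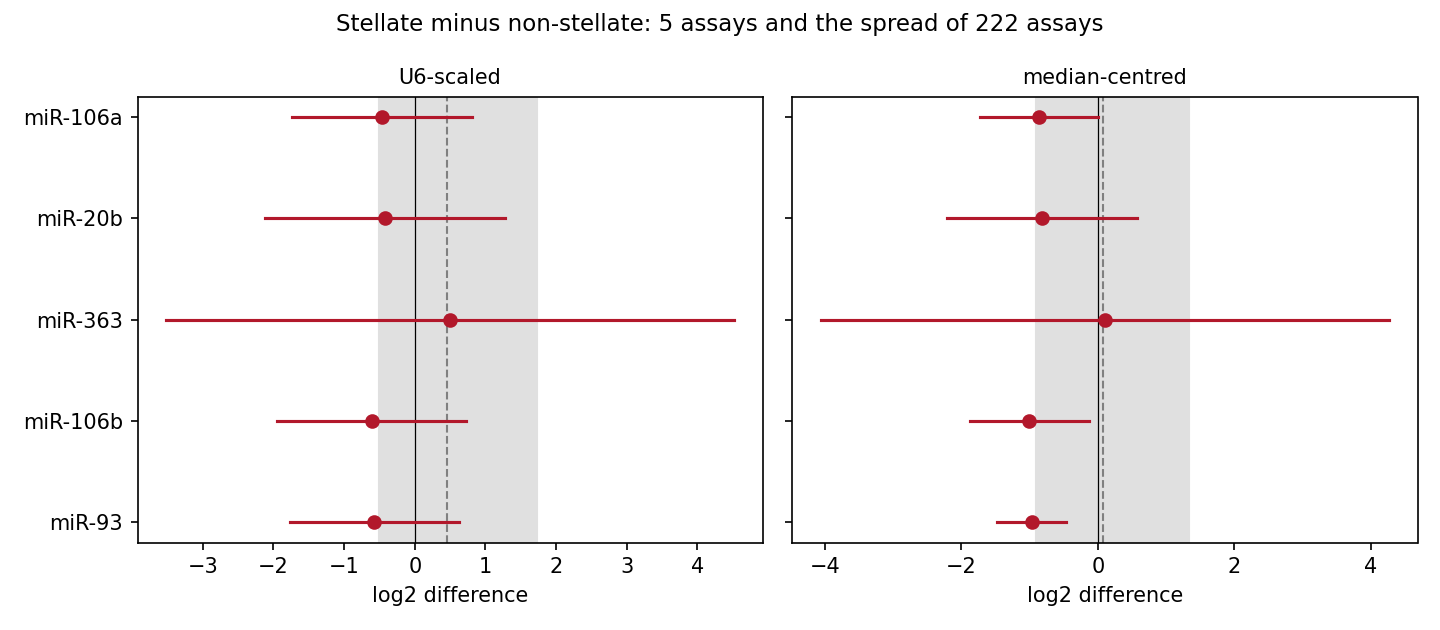
Log2 difference of stellate minus non-stellate cells for the 5 assays on the U6 scale (left) and after median centring (right), with 95% confidence intervals from limma. The grey band spans the 10th to the 90th percentile of all 222 tested assays and the dashed line is their median. Points of miR-106a, miR-20b, miR-106b and miR-93 lie to the left of the dashed line on both scales, and miR-363 has the widest interval.

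After median centring, 4 of the members had lower levels in stellate cells in all 5 numbered pairs and none passed the adjusted threshold. With snoRNA202 as the reference the members' median fold change was 0.32, the other direction. That median was negative with U6 (-0.46), snoRNA135 (-0.36), U87 (-0.48), Y1 (-0.15) and the global mean (-0.80). For miR-93, Ct minus the sample median was -0.93, -1.28, -1.03, -0.88 and -1.57 in stellate samples 1 to 5 and -2.20, -1.90, -2.10, -1.90 and -2.45 in non-stellate samples 1 to 5. The groups did not overlap, every stellate sample having the higher Ct and so the lower level. Without overlap and lower in stellate cells were 1.35% of the 222 assays. The fold change of miR-93 was -0.97 ± 0.23 (unadjusted p = 0.00179, adjusted p = 0.132, limma), and the exact permutation p was 0.00794, the smallest that 252 splits allow.

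For miR-106b the values were -0.13, -1.36, -0.89, -1.02 and -2.23 in stellate samples and -1.55, -2.04, -2.27, -2.09 and -2.70 in non-stellate samples. These groups overlapped through stellate sample 5. The fold change was -1.01 ± 0.39 (adjusted p = 0.343, limma; exact permutation p = 0.0317). MiR-106a had a fold change of -0.86 ± 0.39 (adjusted p = 0.35; exact permutation p = 0.0476) and miR-20b of -0.82 ± 0.62 (adjusted p = 0.494; exact permutation p = 0.286).

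For miR-106a the 5 pair differences ranged from -1.21 to -0.58, for miR-20b from -1.30 to -0.56, for miR-106b from -1.43 to -0.47 and for miR-93 from -1.27 to -0.62. Being lower in stellate cells in all 5 pairs was true of 12.2% of the 222 assays. MiR-363 had a fold change of 0.11 ± 1.87, with 3 of 5 pairs higher in stellate cells. On this scale too 0% of the 222 assays were called, with 28 at an unadjusted p under 0.05, and the exact permutation test gave 0 after adjustment and 29 before it. The median fold change of all assays was then 0.07. With snoRNA202 it was 1.25.

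**Figure D4:**
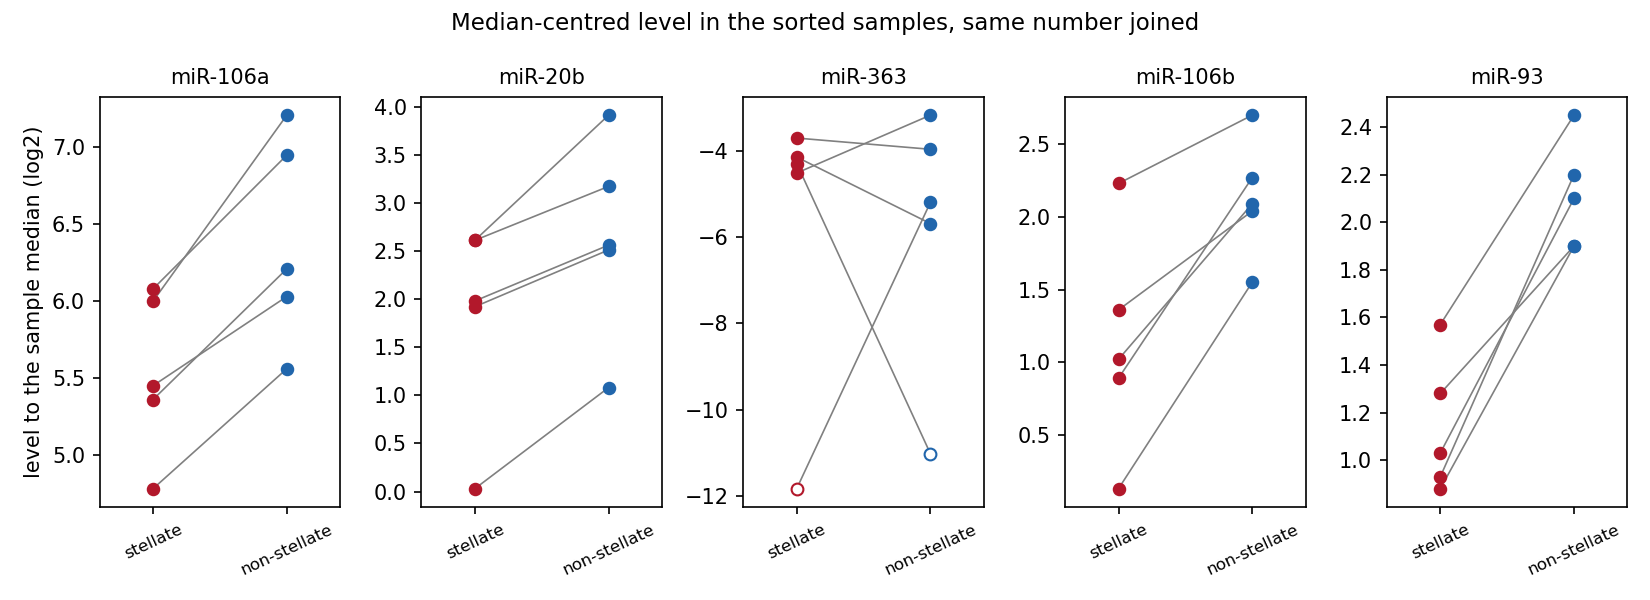
Level of each assay relative to the sample median (log2, vertical axis, a separate range per panel) in stellate and non-stellate samples, with samples of the same number joined. Open points are undetermined wells entered at 40. All 5 lines rise from stellate to non-stellate for miR-106a, miR-20b, miR-106b and miR-93, and for miR-363 they cross. With snoRNA202 as the reference these 4 assays had a higher mean in stellate cells.

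Markers of cell types were summed in the same samples. Relative to the sample median, every sum overlapped between stellate and non-stellate samples except that of oligodendrocytes. The oligodendrocyte sum covers only samples with a determined marker, and both groups held samples with neither marker determined. On the U6 scale the neuron sums did not overlap, at -5.76 to -4.24 in stellate and -8.79 to -5.79 in non-stellate samples. There the other sums overlapped, oligodendrocytes again excepted. Summed over the 5 neuron markers, the log2 level relative to the sample median was 4.75 to 6.71 in stellate and 3.54 to 5.00 in non-stellate samples. The sums were 2.09 to 5.24 against 0.78 to 2.41 for 5 markers of white blood cells and microglia, of which miR-142-5p was undetermined in all sorted samples. The others differed in direction. After median centring the log2 fold change was 1.98 for miR-150 and 0.66 for miR-146a, but -1.17 for miR-142-3p and -0.17 for miR-223. For the 4 vascular markers the sums were 1.25 to 4.42 against 1.17 to 2.74, and for the 6 markers of choroid plexus and ependyma 2.16 to 4.24 against 1.88 to 2.51. Of the red blood cell list, 2 of 3 miRNAs were on the card, and the sums were 1.73 to 2.73 against 2.20 to 3.07. Of the 2 oligodendrocyte markers, only miR-338-3p was determined in any stellate sample, in 3 of 5, and only miR-219 in any non-stellate sample, in 2 of 5. The part of these markers in the members' values was not tested.

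Ratios between members were compared without any reference RNA, as the Ct difference between 2 wells of the same card, for 9 pairs of assays. The difference miR-106b minus miR-93, neighbours at the Mcm7 locus, was 0.80, -0.08, 0.14, -0.14 and -0.66 cycles in stellate samples 1 to 5. It was 0.64, -0.14, -0.18, -0.19 and -0.25 cycles in non-stellate samples 1 to 5. The groups overlapped, with sample 1 the highest of each. The means were 0.01 ± 0.532 (SD, n = 5) and -0.02 ± 0.375 (SD, n = 5), a difference of 0.03 cycles (exact permutation p = 0.913).

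Of the 9 pairs, 0 passed between stellate and non-stellate cells, with an adjusted p of 0.984 for each and no unadjusted exact permutation p under 0.46. MiR-106b minus miR-17 differed by 0.15 cycles between the sorted groups, miR-93 minus miR-20a by 0.13 cycles, miR-20b minus miR-20a by -0.03 cycles and miR-106a minus miR-20b by 0.04 cycles. The 3 pairs with miR-363, which contain its undetermined wells, differed by -0.74 to 0.96 cycles. The sign-flip test of the numbered pairs cannot go below 0.0625, and its smallest adjusted p was 0.938.

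Tissue of day 23 was compared with the sorted cells of day 4 or 5, a comparison in which age, sorting and RNA kit differ together and cannot be told apart. On the U6 scale no member passed the test, while most miRNAs were higher in tissue. The U6-scaled Ct of miR-106a was 5.68 and 5.77 in tissue and ran from 3.50 through a median of 4.98 to 6.57 over the 10 sorted samples. For miR-20b it was 8.91 and 9.23 in tissue against 6.79, 8.57 and 11.32, and for miR-363 15.49 and 16.68 against 14.20, 15.34 and 23.18 (lowest, median and highest of the sorted samples). For miR-93 it was 8.84 and 8.93 against 8.26, 9.39 and 10.42, and for miR-106b 7.61 and 8.13 against 8.0, 9.23 and 11.22. For miR-106a, miR-20b and miR-93 both tissue values lay within the sorted range, and for miR-106b the value of 7.61 lay outside it. For miR-363 the value of 16.68 lay above the highest determined sorted value, 16.15, the 2 higher ones being undetermined wells entered at 40.

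The log2 difference of tissue minus sorted cells on that scale was -0.78 ± 0.66 for miR-106a, -0.40 ± 0.90 for miR-20b, 0.58 ± 2.18 for miR-363, 1.41 ± 0.71 for miR-106b and 0.40 ± 0.62 for miR-93. None of the 5 passed (adjusted p from 0.0967 to 0.816, limma), whereas 63.5% of the 222 assays did, and 62.2% were higher in tissue. The median log2 difference of all assays was 3.02, and all 5 members lay below it. From the lowest difference up, miR-106a was number 17 of 222, miR-20b number 22, miR-93 number 39, miR-363 number 44 and miR-106b number 64. On the U6 scale no member lay wholly below the sorted range (0.901% of assays did).

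Relative to the median assay, the same wells placed 4 of the 5 members lower in tissue. For miR-106a, Ct minus the sample median was -2.06 and -2.33 in tissue, and ran from -7.21 through a median of -6.02 to -4.78 in sorted samples. For miR-20b it was 1.17 and 1.13 against -3.91, -2.54 and -0.03, and for miR-93 1.09 and 0.83 against -2.45, -1.73 and -0.88. Tissue did not overlap the sorted range for these 3 members, which was so, in this direction, for 26.1% of the 222 assays.

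The log2 difference was -3.77 ± 0.45 for miR-106a (adjusted p = 6.6e-05), -3.39 ± 0.73 for miR-20b (adjusted p = 0.00268) and -2.59 ± 0.26 for miR-93 (adjusted p = 1.75e-05, limma). MiR-106b, with -0.14 and 0.03 in tissue against -2.70, -1.79 and -0.13, differed by -1.57 ± 0.45 (adjusted p = 0.0146). MiR-363 read 7.75 and 8.58 in tissue, above the 8 determined sorted values, and its difference was -2.41 ± 2.18 (adjusted p = 0.373), or -3.82 ± 0.59 (adjusted p = 0.000332) with its 2 undetermined wells missing. So 4 of 5 members were lower in tissue relative to the median assay, where 25.2% of the 222 assays were lower and 23.9% higher, while 2 of these 4, miR-106b and miR-93, had differences above 0 on the U6 scale. The call for miR-106b was lost without tissue 1 (adjusted p = 0.0896) and without tissue 2 (adjusted p = 0.105), and the 3 other calls held without either. With the RNA Y1 as the reference the same 4 members were lower, and with snoRNA135 or U87 only miR-106b passed, as higher in tissue.

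Some markers of other cell types stood apart in tissue too. MiR-451 of red blood cells read 26.73 and 26.85 in tissue and was undetermined in all 10 sorted samples. MiR-486 of the same list read 24.3 and 24.45 in tissue and was determined in all 10 sorted samples, at 25.53 to 27.87. The oligodendrocyte marker miR-219 read 25.11 and 25.63, and was determined in 2 of 10 sorted samples, at 31.48 and 32.06. Relative to the sample median, the log2 sum was 4.58 to 4.75 in tissue for the vascular markers, above all sorted samples, and 6.61 to 6.95 for the neuron markers. It was 3.65 to 3.73 for white blood cells and microglia and 2.39 to 2.81 for choroid plexus and ependyma, both within the range of sorted samples. Single markers of these lists differed more than their sums. MiR-142-5p read 30.2 and 30.43 in tissue and was undetermined in all 10 sorted samples. The tested markers differed after median centring by 3.03 (miR-142-3p) to -0.21 (miR-223) in the first list. In the second list they differed by 0.77 (miR-204) to -7.42 (miR-449a). The sum was -0.51 to -0.35 for the red blood cell list, below all sorted samples, although its miR-451 was higher. The oligodendrocyte sum was -1.8 to -1.29. The part of these markers in the members' values was not tested.

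**Figure D5:**
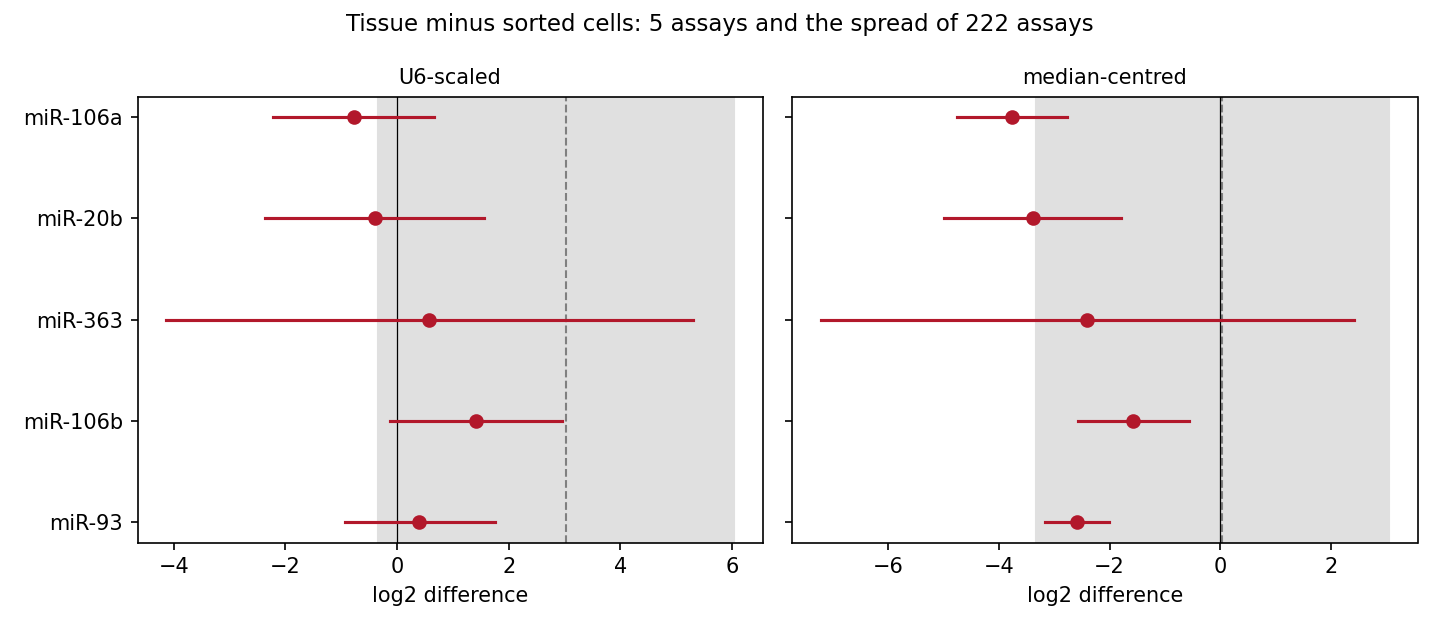
Log2 difference of tissue minus sorted cells for the 5 assays on the U6 scale (left) and after median centring (right), with 95% confidence intervals from limma. The grey band spans the 10th to the 90th percentile of all 222 tested assays and the dashed line is their median, 3.02 on the left and 0.03 on the right. All 5 points lie to the left of the dashed line on both scales.

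The same Ct differences were compared between tissue and sorted cells. MiR-106b minus miR-93 was -1.23 and -0.81 cycles in tissue and -0.66 to 0.80 cycles in the 10 sorted samples, so the groups did not overlap. The difference of means was -1.01 cycles and did not pass after adjustment (exact permutation p = 0.0303, adjusted over the 9 pairs 0.136). MiR-106b minus miR-17 was 1.95 and 2.41 cycles in tissue and 3.83 to 5.26 cycles in sorted samples, a difference of -2.22 cycles without overlap (exact permutation p = 0.0152, the smallest that 66 splits allow, adjusted 0.136). Of the 9 pairs, 0 passed the adjusted threshold. A single pair could not have passed, since the smallest possible p is not below 0.05 after adjustment over 9 pairs. No conclusion is drawn from the 0. How many of all possible assay pairs separate tissue from sorted cells was not counted. MiR-106a minus miR-20b was -3.23 and -3.46 cycles in tissue and -4.75 to -3.30 cycles in sorted samples, which overlap (exact permutation p = 0.273).

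The related list held the miRNAs of the miR-17 cluster and the other miRNAs of the member clusters: miR-17, miR-18a, miR-18b, miR-19a, miR-19b, miR-20a, miR-25 and miR-92a. MiR-18b was undetermined in all 12 samples, and the 7 others were tested. Between stellate and non-stellate cells none of the 7 passed on either scale, and their median log2 fold change was -0.41 on the U6 scale and -0.80 after median centring, beside -0.46 and -0.86 for the 5 members. After median centring miR-18a had -1.06 ± 0.40, miR-17 -0.85 ± 0.41, miR-20a -0.84 ± 0.34, miR-25 -0.80 ± 0.35 and miR-92a -0.63 ± 0.44 (adjusted p from 0.343 to 0.484, limma).

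Between tissue and sorted cells, miR-19a and miR-19b differed from the other tested miRNAs of this list. On the U6 scale they were the 2 of 7 that passed, higher in tissue by 3.98 ± 0.66 (adjusted p = 0.000256) and 3.52 ± 0.60 (adjusted p = 0.000303, limma). That was near the median of all assays, 3.02, and 62.2% of the 222 assays passed as higher. After median centring 5 of the 7 were lower in tissue, beside 25.2% of the 222 assays (23.9% were higher). Their log2 differences were -4.09 ± 0.51 for miR-92a, -3.79 ± 0.47 for miR-17, -2.66 ± 0.46 for miR-18a, -2.66 ± 0.40 for miR-25 and -2.29 ± 0.39 for miR-20a. MiR-19a was higher by 0.99 ± 0.36 (adjusted p = 0.0414) and miR-19b did not pass (0.53 ± 0.30, adjusted p = 0.164). On that scale the miR-106a and miR-17 assays gave -3.77 and -3.79.

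Each member's order of levels over the 3 groups depends on the scale. On the U6 scale the 3 groups overlapped pairwise for miR-20b and miR-93. There, miR-106a was lower in both tissue samples than in every non-stellate sample (so were 3.6% of the 222 assays), and miR-106b was higher in both than in every stellate sample (so were 69.8%). For miR-363 the U6-scaled Ct of 15.49 and 16.68 in tissue overlapped the determined non-stellate values of 14.68 to 16.15. Both exceeded the determined stellate values of 14.20 to 15.18, a higher Ct and so a lower level. With stellate sample 1, undetermined and entered at 40 (U6-scaled 23.18), stellate cells and tissue overlapped too. On the median-centred scale the order was non-stellate, stellate and then tissue, from high to low by their means, for miR-106a, miR-20b, miR-106b and miR-93. Samples of neighbouring groups in that order did not overlap for miR-93, nor for stellate cells and tissue in miR-106a and miR-20b (32.4% of the 222 assays were lower in tissue than in every stellate sample). They overlapped between non-stellate and stellate cells for miR-106a, miR-20b and miR-106b, and between stellate cells and tissue for miR-106b.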

How the data were processed

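The labels give 5 stellate, 5 non-stellate and 2 tissue samples, read on the Rodent MicroRNA A card (384 wells) after multiplex reverse transcription and pre-amplification. The raw table the authors deposited gives Ct, a log2 scale, with 40 for undetermined wells. The normalized table the authors deposited is Ct minus the mean of the 4 U6 wells (largest difference 7.1e-15), also log2. Deposited fold-change and limma tables hold the authors' own comparison and were not used. RNA came from the RNAqueous Micro kit for sorted cells and the mirVana kit for tissue, per the labels. The study's methods instead name a Norgen kit for whole medial entorhinal tissue. A description field of non-stellate samples 3 and 5 calls them labelled. Their title, source and fluorescence call them unlabelled and were followed.

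Log2 differences are minus the difference in scaled Ct. Assays undetermined in at most 3 of 10 sorted samples were tested (222 of 375) with limma 3.58.1 in R 4.3.3 (lmFit, eBayes, two-sided, Benjamini-Hochberg adjusted over all tested assays, threshold 0.05), without a block. The tissue contrast used all 12 samples. Single assays and Ct differences were compared by exact two-sided permutation (252 splits for 5 against 5, 66 for 2 against 10), and pairs also by sign flips (32 patterns). Undetermined wells entered as 40. Only U6 had replicate wells, with an SD of 0.366 cycles pooled over samples, and it alone gives the precision of a well. Ct gives no molecule count, and the number of samples limits precision. Scripts were tested on simulated data.

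The series describes labelled and unlabelled cells of the same 5 biological replicates, so same-numbered sorted samples were read as pairs. Their deviations from group means correlated at 0.0743 to 0.331 (mean 0.187), against a mean of -0.048 for different numbers.

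The members, the related list (the miR-17 cluster and the remaining cluster genes), the marker lists and the 3 most similar assays per member were the named miRNAs. The members and lists were chosen with earlier results of these data known. Alternatives changed the block, scaling, undetermined wells, filter and samples. Leave-outs and other variants on the median-centred scale were added after seeing the data. Sequences are from RefSeq, build GRCr8.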

Additional observations from a re-analysis of the deposited data

Results flagged for a closer look

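Within a group of 5 samples, a value was listed here when its gap to the nearest sample exceeded 0.71 of the group's range. Of 38 groups checked, 14 had such a value, where chance gives about 1 in 20. Many of them are the same wells read on several scales. Stellate sample 1 gave 3 of them for miR-20b: a U6-scaled Ct of 11.32, a Ct minus the sample median of -0.03, and a difference miR-106a minus miR-20b of -4.75 cycles.

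The undetermined wells of miR-363 gave the next set. In stellate sample 1 they put the U6-scaled Ct at 23.18, Ct minus the sample median at 11.83, miR-106a minus miR-363 at -16.61, miR-20b minus miR-363 at -11.86 and miR-363 minus miR-92a at 15.22. In non-stellate sample 2 the U6-scaled Ct was 22.26, miR-106a minus miR-363 was -17.23, miR-20b minus miR-363 was -13.53 and miR-363 minus miR-92a was 16.13. These values start from a listed Ct of 40 and are not measurements of miR-363.

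Non-stellate sample 1 stood apart for miR-106b minus miR-93, at 0.64 cycles, and for miR-93 minus miR-20a, at 1.81 cycles.

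The card also has an assay for miR-20b-3p, the other arm of the miR-20b hairpin, which no comparison used. It was determined in stellate sample 5 at a Ct of 34.37 and in tissue sample 1 at 33.40, and was undetermined in the other 10 samples.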

How the results depend on the processing

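The number of members past the threshold between stellate and non-stellate cells was 0 in all 25 alternatives, the replicate block and the exact permutation test included, and in the 13 variants on the median-centred scale. The smallest adjusted p of a member was 0.0643, for miR-93 after median centring with all 12 samples in the fit. With median centring and the replicate block together it was 0.11 for miR-106a, miR-20b, miR-106b and miR-93. The pairs of assays gave 0 passing in 12 alternatives for the sorted groups, with the replicate block a smallest adjusted p of 0.938, and 0 in 13 for tissue, where the adjusted p went down to 0.0818. For tissue the few splits kept a single pair from passing in any of them, so this count does not show stability. The replicate block changed no call.

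For tissue against sorted cells the count moved from 0 to 4 with median centring, 4 with the global mean and 4 with Y1, all lower in tissue, and to 1 with snoRNA135 and 1 with U87, higher. Of 14 variants of the median-centred count, which is 4, the lowest was 3 and the highest 5.

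Directions that turned between the sorted groups under snoRNA202 were those of miR-106a (0.32), miR-20b (0.36), miR-106b (0.18) and miR-93 (0.21). Leaving out single samples gave miR-20b -0.74 to 0.19 and miR-363 -0.84 to 2.19, or -1.20 to 1.64 after median centring. In tissue, median centring, global mean and Y1 turned miR-363 (-2.41, -2.09 and -2.92), miR-106b (-1.57, -1.26 and -2.09) and miR-93 (-2.59, -2.27 and -3.10). U87 turned miR-20b (0.35). MiR-363 turned with undetermined wells missing (-0.93), with Ct capped at 35 (-0.42) and over single samples left out (-0.26 to 1.18). The cause of these turns was not tested.

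Non-stellate samples 3 and 5, whose description field calls them labelled, were also left out. The median-centred fold change was then -0.40 for miR-106a, -0.22 for miR-20b, 1.60 for miR-363, -0.77 for miR-106b and -0.86 for miR-93. With all sorted samples it was -0.86, -0.82, 0.11, -1.01 and -0.97 in the same order. MiR-363 was undetermined in 2 of 10 sorted samples, and the 2 tissue samples bound every tissue comparison.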
